A study of Rattus norvegicus with 3 samples.

Results

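The lens crystallins are a family of small soluble proteins, and 10 of their genes were followed here in the retina of newborn rats: Cryaa, Cryab, Cryba1, Crybb1, Crybb2, Crybb3, Crygc, Crygd, Crygf and Crygs. They were taken by symbol from a table of 18425 genes, and they were chosen by their FPKM and read counts, as the family with the largest rise in the STZ library of this same table. Their differences between libraries are therefore given as a description, and nothing is tested with them. The rats were wild-type Sprague Dawley, and eyes received 1 µl of solution into the vitreous at P1 (postnatal day 1), after which the retinas were collected at P4. The 3 groups were citrate buffer at pH 4.5 (Buffer), which is the vehicle of STZ, saline (Saline), and 10 µg of streptozotocin (STZ), a glucosamine-nitrosourea that alkylates DNA. Each group is 1 library of total RNA from dissected retinas, and neither the labels nor the methods say how many retinas or animals were pooled in it. With 1 library per group there is no spread between animals, so no p-value is given and treatment and dissection cannot be told apart. Where the study examined retinal function and structure, STZ went into the right eye and buffer into the left eye of 1 animal, so Buffer and STZ may come from the same rats, but this is not stated for the sequenced retinas.

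Crystallins fill the fiber cells of the lens, where their dense packing gives transparency and a high refractive index. The α-crystallins, Cryaa and Cryab, belong to the small heat shock proteins and hold unfolding proteins in solution, and Cryab is also made in many tissues outside the lens. The β- and γ-crystallins are structural proteins of a separate superfamily. Crystallin transcripts have also been described in the neural retina, at far lower levels than in lens.

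Depth was even, at 21992702 reads for Buffer, 21977843 for Saline and 22031249 for STZ. The values are FPKM (fragments per kilobase, scaled for library size) and estimated read counts. The fold change is (FPKM + 1)/(FPKM + 1), and a gene was called higher where its log2 exceeded 0.62 and lower where it was below -0.62, the limits set in the methods of the study. The count ratio divides the share of reads that a gene took in one library by its share in another, and is given with an exact Clopper-Pearson 95% interval in brackets. These intervals cover counting error only, and compare libraries, not treatments. Intervals that exclude 1 were common. For the ratio of STZ to Buffer, 4007 of all 18425 genes had an interval wholly above 1, and 2851 had one wholly below. With Saline as the control, these numbers were 4075 and 3585. An interval clear of 1 therefore does not by itself set a crystallin gene apart from other genes. The tissue label was borne out by Crx and Nrl, transcription factors of photoreceptors, with FPKM of 384 and 348 in Buffer, 349 and 327 in Saline, and 409 and 414 in STZ.

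Summed over the 10 genes, crystallin reads numbered 196 in the Buffer library, 638 in Saline and 3763 in STZ. As FPKM the sums were 15.2, 46.8 and 304. The 3 libraries stood in the order Buffer, Saline, STZ with large gaps between each. The count ratio of the sum was 19.2 for STZ against Buffer (16.6 to 22.2), 5.88 for STZ against Saline (5.41 to 6.41) and 3.26 for Saline against Buffer (2.77 to 3.84). In these bulk libraries, more cells that make crystallins and more crystallin RNA per cell cannot be told apart. The comparisons share libraries, so the 3 ratios are not independent of each other.

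By the fold rule, 8 of the 10 members were higher in STZ than in Buffer, where 2.25% of all genes were called higher. No member was lower, against 1.04% of all genes. Against Saline, 7 of the 10 were higher (2.04% of all genes) and none was lower (1.75% of all genes). Since the rise in STZ is what chose the family, nothing is read from these counts. Saline itself had 8 of the 10 above Buffer, where 1.0% of all genes were higher, and none below, where 0.429% were lower. This comparison shares its Buffer library with the rise that chose the family, so nothing is read from its count either. With a mean of at least 50 reads, a filter that 8 members passed, the counts were again 8, 7 and 8, and the shares of all genes called higher were 2.06%, 2.01% and 0.773%. A member that passes this filter may do so through the STZ library alone. The median fold of the 10 members was 11.8, 4.78 and 2.08 in the 3 comparisons in this order, and that of all genes was 1.01, 1.0 and 1.01.

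**Figure D1:**
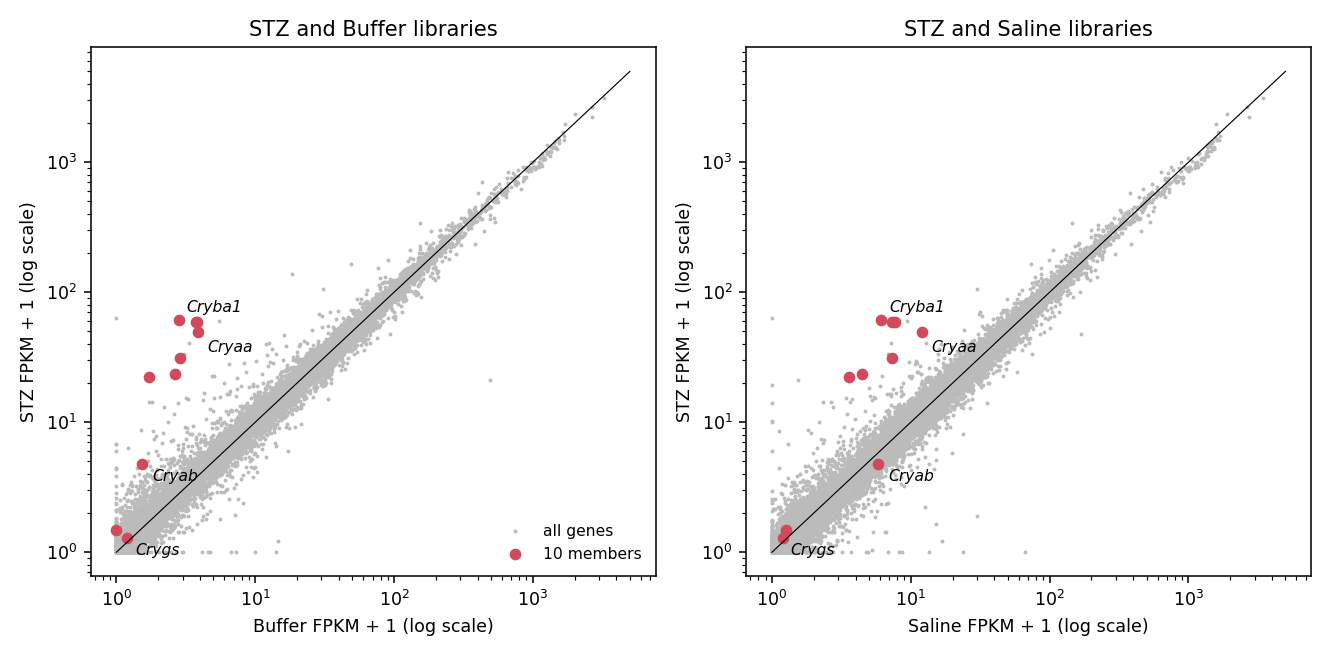
FPKM + 1 in the STZ library (vertical, log scale) against Buffer (left) and Saline (right), with 1 grey point per gene, the 10 crystallin genes in red and a line of equality. In both panels 7 crystallin genes lie far above the line, Cryab does so only against Buffer, and Crybb2 and Crygs sit in the lower left corner at FPKM of at most 0.48 in STZ.

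Among the α-crystallins, Cryaa, the lens-enriched member, had 55 reads in Buffer, 211 in Saline and 928 in STZ, or FPKM of 2.86, 11.0 and 48.2. The fold change of STZ was 12.7 over Buffer and 4.1 over Saline, with count ratios of 16.8 (12.8 to 22.5) and 4.39 (3.77 to 5.12). Saline was 3.84 times Buffer (2.84 to 5.26). The 3 counting intervals of its FPKM did not overlap. In Saline it was the most abundant member, with an interval clear of the next, while in STZ it came after Cryba1, Crygd and Crygf.

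Cryab, the α-crystallin that is also made outside the lens, followed another course. It had 9 reads in Buffer, 81 in Saline and 64 in STZ, or FPKM of 0.54, 4.83 and 3.8. It was low in Buffer alone, and the counting intervals of its Saline and STZ levels overlapped. The count ratio was 7.1 for STZ against Buffer (3.52 to 16.2) and 9.01 for Saline against Buffer (4.52 to 20.4), but 0.788 for STZ against Saline (0.559 to 1.11). Of the 10 members it was the only one with a count ratio below 1 in that comparison. Relative to the other 9 members summed, the Cryab ratio of STZ to Saline was 0.119 times as large (exact conditional interval 0.0834 to 0.17). Against the mean FPKM of both controls its fold was 1.3, which is not a call.

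The promoters of Cryaa and of the β-crystallin Cryba1 are shown. Both genes were higher in STZ than in either control, and both carry TGCTGA. This is the core of the recognition element of Maf proteins, which drive crystallin genes in lens. The stretches are 120 bases before the annotated start, 5′ to 3′, from RefSeq on build GRCr8, at chr20:9784791-9784910 on the plus strand for Cryaa and chr10:63112818-63112937 on the minus strand for Cryba1. Capitals mark TGCTGA and TATAAA (the TATA box).
Cryaa: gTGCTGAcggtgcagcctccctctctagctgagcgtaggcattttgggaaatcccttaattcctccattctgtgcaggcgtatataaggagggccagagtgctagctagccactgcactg
Cryba1: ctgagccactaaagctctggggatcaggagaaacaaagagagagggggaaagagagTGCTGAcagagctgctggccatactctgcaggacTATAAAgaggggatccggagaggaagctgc
Windows of 300 bases, 250 before and 50 after the start, were held for 9 of the 10 members, all but Cryab. TGCTGA, on either strand, was in a window of 5 of these 9 (Cryaa, Cryba1, Crybb1, Crygc and Crygs) and of 20.0% of all 27457 genes. TATAAA was in 3 of the 9 and in 15.3% of all genes, and the Sox motif AACAAT was in 4 of the 9 and in 12.6%. GAANNTTC, the core of the heat shock element, was in 0 of the 9 and in 9.09% of all genes. Such matches describe letters in these windows and are not evidence that a factor bound there. Crygs has 3 of these 4 motifs in its window and was nearly without reads in all libraries, as described below. Crybb3, Crygd and Crygf lack TGCTGA in their windows and were higher in STZ than in either control.

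The β-crystallins were uneven. Cryba1, which encodes the βA3 and βA1 proteins, had 22 reads in Buffer, 62 in Saline and 731 in STZ, with FPKM of 1.82, 5.14 and 60.2. It ranked 5 among the members by FPKM in both controls and 1 in STZ, where its interval overlapped those of Crygd and Crygf. Its count ratio was 33.2 against Buffer (21.7 to 53.3) and 11.8 against Saline (9.07 to 15.5). Relative to the other members summed, the ratio of STZ to Saline was 2.24 times as large for Cryba1 (1.7 to 3.0), and that of STZ to Buffer 1.91 times as large (1.21 to 3.14). Saline to Buffer was 0.851 times that of the others (0.499 to 1.5), an interval that holds 1.

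Crybb1 had 27 reads in Buffer, 57 in Saline and 374 in STZ, and Crybb3 had 23, 78 and 375. The pair had nearly the same reads in STZ, and Crybb3 the higher FPKM there, at 30.3 against 22.6. The count ratios of Crybb1 were 13.8 (9.35 to 21.3) against Buffer and 6.55 (4.94 to 8.81) against Saline, and those of Crybb3 were 16.3 (10.7 to 26.0) and 4.8 (3.75 to 6.2). Crybb2, one of the main β-crystallins of the mature lens, was close to absent. It was listed at 0 reads in Buffer, with 3 in Saline and 6 in STZ, and an FPKM of 0.48 in STZ. A count of 0 allows up to 3 reads, so no count ratio over Buffer is given, and the ratio of STZ to Saline, 2.0, had an interval from 0.426 to 12.3. Its fold of 1.48 for STZ against Buffer fell short of the threshold. With a pseudocount of 0.1 in place of 1 that fold was 5.8.

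**Figure D2:**
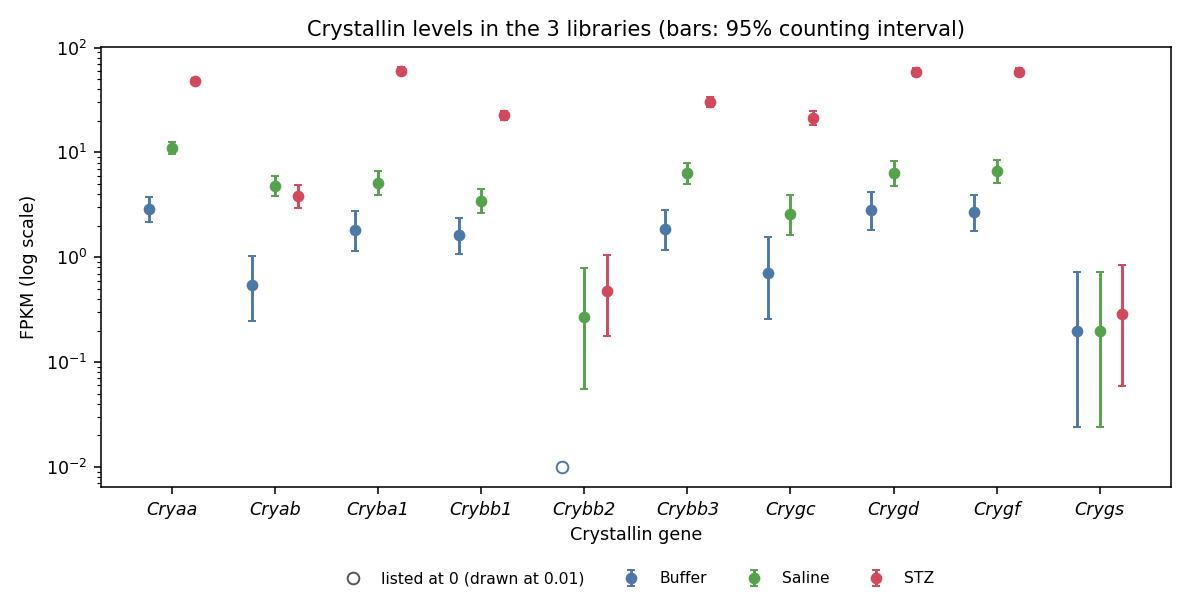
FPKM of each of the 10 crystallin genes (log scale) in the Buffer, Saline and STZ libraries, as points with 95% counting intervals, and an open circle at 0.01 for Crybb2, which was listed at 0 in Buffer. In 7 genes the STZ interval lies above both others, in Cryab the Saline and STZ intervals overlap, and in Crygs all 3 do.

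The γ-crystallins Crygc, Crygd and Crygf, structural proteins of the lens core, were higher in STZ by similar factors. Crygc had 6 reads in Buffer, 22 in Saline and 181 in STZ, Crygd had 25, 56 and 519, and Crygf had 27, 66 and 582. Their FPKM in STZ were 21.4, 58.4 and 58.3. All 3 genes had their lowest level in Buffer and their highest in STZ, and no interval of STZ overlapped one of a control. Count ratios against Buffer were 30.1 (13.6 to 83.1) for Crygc, 20.7 (13.9 to 32.3) for Crygd and 21.5 (14.6 to 32.9) for Crygf. Against Saline they were 8.21 (5.26 to 13.4), 9.25 (7.01 to 12.4) and 8.8 (6.81 to 11.5), so that the intervals of the 3 genes overlapped in both comparisons.

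These genes are related copies, and the split of reads among them is uncertain. In Buffer, only Crygd and Crygf of the lens crystallins had fractional counts, of 24.88 and 27.12, which add to 52. In STZ the fractional counts were those of Cryga, Crygb, Crygc, Crygd, Cryge and Crygf, and these 6 add to exactly 2235. The fractions cancel within the group, so the value of a single gene is less certain than the sum. How the fractions arose is not stated, and per the methods reads with several locations were discarded. Together the 6 genes had 141 reads in Buffer, 290 in Saline and 2235 in STZ, a ratio of 15.8 for STZ against Buffer (13.3 to 18.9) and 7.69 against Saline (6.8 to 8.72).

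The promoters of Crygc, Crygd and Crygf are shown to show the bases they share. Each line is 120 bases before the annotated start (RefSeq, GRCr8), at chr9:73947368-73947487 minus strand, chr9:73937410-73937529 minus strand and chr9:74897864-74897983 plus strand. Capitals mark the longest run of bases that the 3 windows share.
Crygc: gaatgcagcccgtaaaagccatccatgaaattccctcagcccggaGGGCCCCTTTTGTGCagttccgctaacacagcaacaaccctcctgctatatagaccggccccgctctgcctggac
Crygd: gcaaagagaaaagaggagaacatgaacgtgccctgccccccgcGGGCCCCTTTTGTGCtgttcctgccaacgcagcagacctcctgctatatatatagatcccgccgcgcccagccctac
Crygf: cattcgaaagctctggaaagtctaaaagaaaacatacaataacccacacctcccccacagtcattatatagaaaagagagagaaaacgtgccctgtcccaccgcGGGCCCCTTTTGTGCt
The shared run of 15 bases was found in windows of 4 of the 27457 genes, Crygc, Crygd, Cryge and Crygf. It began 75 bases before the start in Crygc, 77 in Crygd and 16 in Crygf. Between Crygd and Crygf the shared run extended to 60 bases, which Cryge also held. A shorter run of 10 bases inside it, common to all 6 genes from Cryga to Crygf, was in windows of 29 genes.

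Crygs, a γ-crystallin encoded apart from the others, had 2 reads in Buffer, 2 in Saline and 3 in STZ. Its FPKM of 0.2, 0.2 and 0.29 did not differ beyond counting error. The ratio of STZ to Buffer was 1.5 (0.172 to 17.9), an interval that holds both 1 and the ratio of Cryaa, so a change in Crygs was not detectable at this depth. Crybb2 and Crygs were thus the 2 members that were not called in any comparison.

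**Figure D3:**
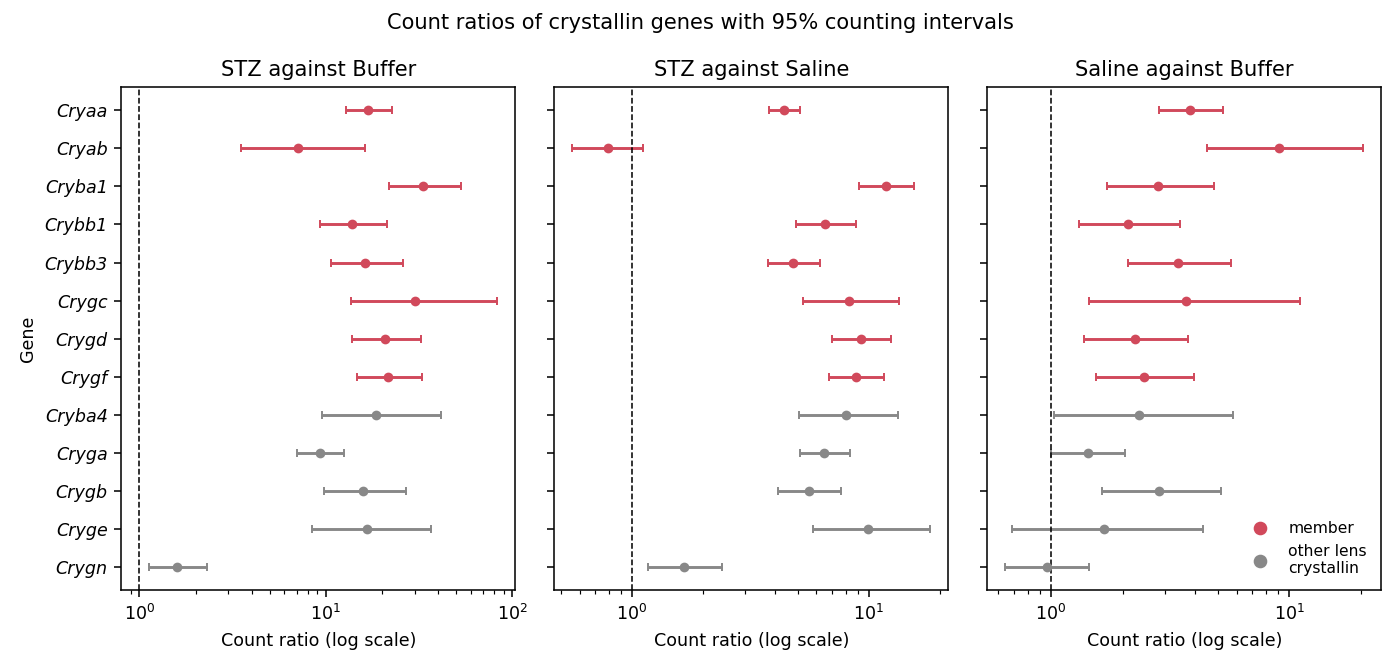
Count ratios on a log scale with 95% counting intervals for the lens crystallin genes with more than 3 reads in both controls, members in red and other lens crystallins in grey, and a dashed line at 1. The 8 members shown lie right of 1 in STZ against Buffer and in Saline against Buffer, and in STZ against Saline only Cryab has an interval that reaches below 1.

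In the order of levels, no neighbours could be separated in Buffer, where the interval of each of the first 9 genes overlapped the next gene. The members lay at FPKM of 0 to 2.86 there, with a median of 1.73, and the highest of them, Cryaa, exceeded 39.0% of all genes. In Saline the median was 4.99 and Cryaa exceeded 56.6% of genes. In STZ the median was 26.5, and Cryba1, Crygd and Crygf, whose intervals overlapped, exceeded 90.8%, 90.5% and 90.4% of all genes. Below them the STZ order was Cryaa, Crybb3, Crybb1 with Crygc, Cryab, and Crybb2 with Crygs, where the genes joined by "with" overlapped.

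The make-up of the family also differed between libraries. The α-crystallins gave 32.7% of crystallin reads in Buffer (exact 95% interval 26.1 to 39.7), 45.8% in Saline (41.9 to 49.7) and 26.4% in STZ (25.0 to 27.8). The γ-crystallins gave 30.6% (24.2 to 37.6), 22.9% (19.7 to 26.3) and 34.1% (32.6 to 35.7), and the β-crystallins 36.7% (30.0 to 43.9), 31.3% (27.8 to 35.1) and 39.5% (37.9 to 41.1). Saline was richest in α-crystallins, and Cryab alone went from 4.59% in Buffer to 12.7% in Saline and 1.7% in STZ. The ratio of STZ to Saline for the α-crystallins was 0.386 times that for the γ-crystallins (0.309 to 0.481) and 0.457 times that for the β-crystallins (0.373 to 0.559). Between β and γ it was 0.844 (0.668 to 1.06). For STZ against Buffer the α to γ value was 0.724 (0.495 to 1.06), an interval that holds 1. These intervals hold counting error only and rest on the counts that chose the family, so the class values are a description and not a test. By FPKM, which corrects for the shorter γ transcripts, the α share was 22.4%, 33.8% and 17.1%, with Saline again the highest.

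**Figure D4:**
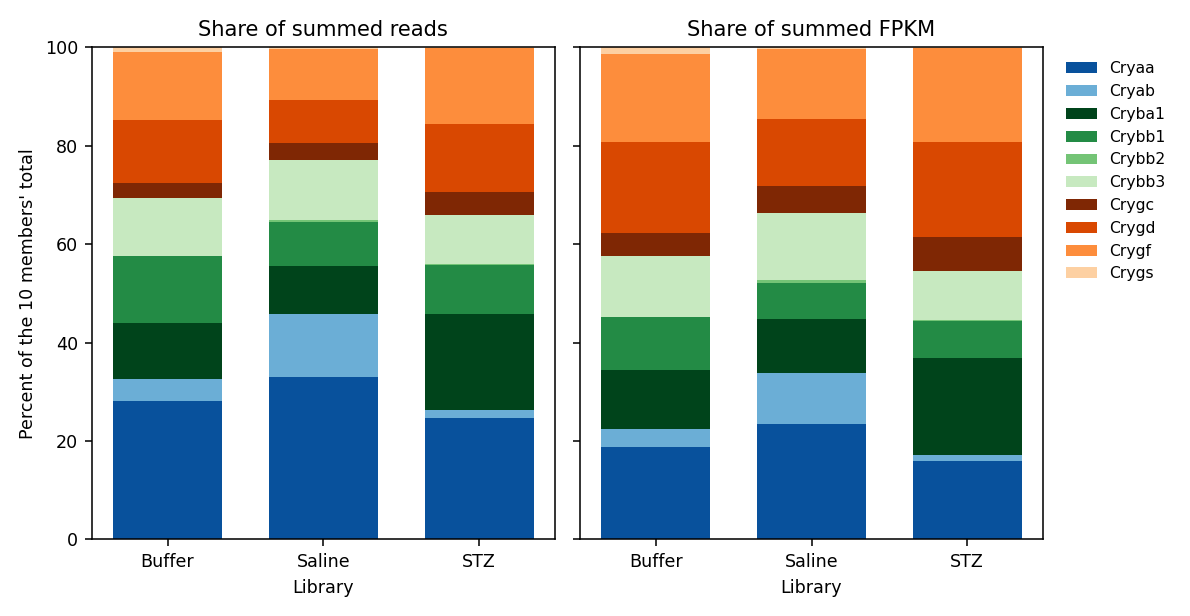
Share of each of the 10 genes in the crystallin total of each library, by reads (left) and by FPKM (right), as stacked bars to 100% with α-crystallins in blue, β in green and γ in orange. The blue part is largest in Saline, at 45.8% of reads and 33.8% of FPKM, and the darkest green, Cryba1, in STZ, at 19.4% of reads and 19.8% of FPKM.

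The other lens crystallin genes of the table were Cryba2, Cryba4, Cryga, Crygb, Cryge and Crygn. Without Crygn, they had 92 reads in Buffer, 170 in Saline and 1179 in STZ, a ratio of 12.8 against Buffer (10.3 to 16.0) and 6.92 against Saline (5.89 to 8.17). By the fold rule 5 of the 6 were higher in STZ than in both controls, as were 256 of all 18425 genes. In Saline against Buffer 3 were higher, where 1.0% of all genes were. Cryba2 was listed at 0 in Buffer, with 3 reads in Saline and 58 in STZ, a ratio of 19.3 over Saline (6.28 to 96.2). Cryga went from 56 reads in Buffer to 80 in Saline and 520 in STZ. Its FPKM was 4.51, 8.45 and 59.0, and the transcript length implied by its FPKM was not the same in the 3 libraries (565, 431 and 400 bases). Crygn, a gene expressed outside the lens as well, had 53, 51 and 85 reads, and its folds of 1.24 and 1.35 were not calls. The genes that carry a crystallin name for other reasons, Cryz, Cryzl1, Cryl1, Crym and Crybg3, had no call in any comparison. For STZ against Buffer, 2.25% of all genes were higher and 1.04% lower, and the folds of these genes were between 0.875 and 1.25. The members listed here are therefore not the whole of the family that was higher in STZ, and for all 16 lens crystallin genes the summed ratio was 14.7 against Buffer (13.2 to 16.5).

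Genes that mark lens fibers beside the crystallins were also followed. Mip, the water channel of fiber cells, had 73 reads in Buffer, 73 in Saline and 86 in STZ, with fractional counts. Bfsp1 and Bfsp2, which form the beaded filament of fiber cells, had 50, 105 and 90 reads and 29, 35 and 49 reads. None of these 3 genes was called in STZ against either control. Gja3, a connexin, had 1, 12 and 21 reads and Lim2, a membrane protein, 1, 8 and 9. Of these 5 genes, Bfsp2, Gja3 and Lim2 had their lowest count in Buffer and their highest in STZ, as the crystallin sum did. Count ratios of STZ to Buffer were 1.18 for Mip (0.851 to 1.63), 1.8 for Bfsp1 (1.26 to 2.59) and 1.69 for Bfsp2 (1.04 to 2.77). Those of Gja3 and Lim2, over 1 read in Buffer, were 21.0 (3.37 to 867) and 8.98 (1.24 to 394). Mip had the smallest ratio of these 5 genes. For the 10 crystallins the ratio was 16.3 times that of Mip for STZ against Buffer (11.4 to 23.3), 5.0 times for STZ against Saline (3.57 to 7.0) and 3.25 times for Saline against Buffer (2.23 to 4.75).

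On the lens fiber list of 16 genes, 3 were higher in STZ than in Buffer, where 2.25% of all genes were. These were Lim2, Grifin and Lenep, with at most 13 reads in any library. None was higher than in Saline, where 2.04% of all genes were, a share to which 0 of 16 is close, so nothing is read from it. In Saline against Buffer 2, Grifin and Bfsp1, were higher, where 1.0% of all genes were. Of the lens epithelium list, Foxe3, its defining transcription factor, had 0 reads in Buffer, 0 in Saline and 1 in STZ. Of its 6 genes 0 were higher in STZ than in either control, which is also close to the shares of all genes. In Saline against Buffer 2 were higher, where 1.0% of all genes were. These were Aqp1 and Gja1, which other cells of the eye also express. Against Saline, 3 of the 6 were lower in STZ, where 1.75% of all genes were. Against Buffer only Pdgfra was lower, where 1.04% of all genes were. The folds of Pdgfra were 0.517 against Buffer and 0.565 against Saline. What share of the crystallin reads came from lens cells was not tested.

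The transcription factors that drive crystallin genes in the lens showed no call. Of 12 genes on this list in the table, 0 passed the fold rule in any of the 3 comparisons. Of all genes, 2.25% were higher and 1.04% lower in STZ than in Buffer, and 2.04% and 1.75% than in Saline. In Saline against Buffer 1.0% were higher and 0.429% lower. A count of 0 of 12 is close to these shares, so nothing is read from it. Maf, the main activator of crystallin genes in fiber cells, had 469 reads in Buffer, 430 in Saline and 534 in STZ. Prox1, which fiber cells share with horizontal cells of the retina, had 4297, 3986 and 3501. Hsf4, the heat shock factor of the lens, had 11, 11 and 6 reads. Most of these factors are also made by retinal cells, so their totals do not isolate a lens source.

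Cryaa and Cryab are small heat shock proteins, and the rest of that group had no call in STZ. Of 8 genes, 0 were called in STZ against either control, and only 4 of the 8 had a mean of at least 10 reads. Of all genes, 2.25% were higher and 1.04% lower in STZ than in Buffer, and 2.04% and 1.75% than in Saline. Hspb1, which encodes HSP27, had 13 reads in Buffer, 28 in Saline and 23 in STZ and was called higher in Saline than in Buffer, with a fold of 1.55. Its order, low in Buffer and alike in the other 2 libraries, was that of Cryab, at few reads. Of the 12 genes of the heat shock response in the table, among them Hsf1, Hspa8 and Hsp90aa1, 0 passed in any comparison, with folds of 0.94 to 1.32 in STZ against Buffer. Both counts of 0 are close to the shares of all genes called, so nothing is read from them.

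**Figure D5:**
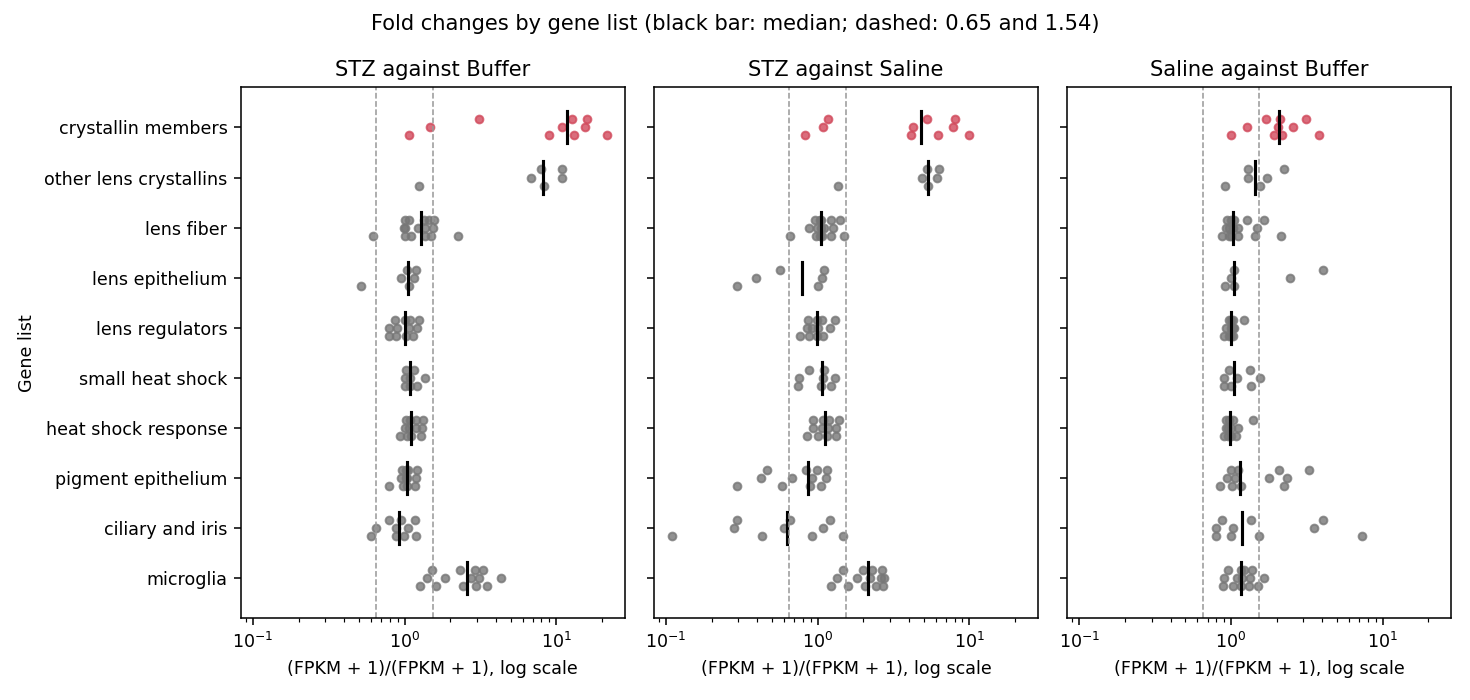
Fold change of every gene in 10 gene lists, on a log scale, for the 3 comparisons, with the median of each list as a black bar and the thresholds for lower and higher as dashed lines. The crystallin lists stand farthest right in both STZ comparisons, followed by microglia, while the pigment epithelium and ciliary lists have genes right of the upper threshold only in Saline against Buffer.

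Other cell types also differed between the libraries. Of 14 genes that mark microglia (macrophages resident in neural tissue), 11 were higher in STZ than in both controls, as were 256 of all 18425 genes. The summed reads of the 14 were 1595 in Buffer, 1979 in Saline and 4486 in STZ. Aif1, which encodes IBA1, had 86, 95 and 273 reads. Microglia and crystallin totals thus had the same order of libraries, and the part of one in the other was not tested. In Saline, 5 of 12 pigment epithelium genes and 3 of 10 ciliary and iris genes were higher than in Buffer, where 1.0% of all genes were. The summed reads of the ciliary list were 2738 in Buffer, 8686 in Saline and 2749 in STZ. Pmel, a melanosome protein, had 252, 940 and 240 reads, and Aldh1a1, an enzyme of retinoic acid synthesis, 1904, 6838 and 1904. The others called higher in Saline were Wfdc1, Gja1, Tyr, Tyrp1, Dct and Mlana, and none of these 8 genes was called in STZ against Buffer, where their folds were 0.789 to 1.22. The intermediate crystallin level of Saline and its excess of Cryab thus came with these genes, and their part in it was not tested. Among 7 ganglion cell genes, 0 were called in any comparison. Of 7 genes of Müller glia, Apoe, which microglia also make, was higher in STZ than in both controls, at 961, 1449 and 3305 reads, while Sox9 and Gfap were lower than in Saline. Of 8 retinal genes Rcvrn was higher than in Buffer, with a fold of 1.62. Of 5 blood genes, Hbb-b1 was higher in Saline and in STZ than in Buffer, with 34, 116 and 69 reads, and Hba-a1 was lower in STZ than in both controls, with 9, 10 and 4. Hbb and Hbb-b1 were also lower in STZ than in Saline. Of all genes, 2.25% were higher and 1.04% lower in STZ than in Buffer, and 2.04% and 1.75% than in Saline. In Saline against Buffer 1.0% were higher and 0.429% lower. Nothing is read from the counts on the short ganglion cell, Müller glia, retinal and blood lists.

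The genes whose pattern was nearest to that of the summed crystallins were sought over the 3 libraries among 10969 genes outside the family with a mean of at least 50 reads and whole-number counts. The measure was the distance between the pairs of log2 count ratios against Buffer, which were 4.26 for STZ and 1.7 for Saline in the crystallin sum. Gpnmb, which encodes a transmembrane glycoprotein, came first, with 106 reads in Buffer, 285 in Saline and 1825 in STZ, and log2 ratios of 4.1 and 1.42. The next were Rab7b, Capg, Cd68 and Hcls1, at distances of 1.56 to 2.04 against 0.324 for Gpnmb. Rab7b had 16, 29 and 128 reads, and Cd68, which is also on the list of microglia genes, had 20, 41 and 107. Rab7b, Capg, Cd68 and Hcls1 had fewer than 50 reads in both controls, so they passed the filter through the STZ library. The ratios that were matched also hold the rise that chose the family, so the search is a description only. A likeness over 3 libraries rests on 2 differences between libraries.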

How the data were processed

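Retinal RNA was sequenced from 1 library per group. Per the labels and the methods, the authors used FastQC, trimmed reads, aligned them with TopHat2 to rn6 (at most 2 mismatches) and discarded reads with several locations. The annotation is not given in the sources used here. The authors deposited FPKM from an R script of their own, TPM, and estimated counts per gene, about 13% of them fractional (12.9% to 13.2%), which were rounded to whole numbers here. The per-sample and series tables held identical values.

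The members and the 15 gene lists were chosen with earlier results of these data known. Folds used a pseudocount of 1, and intervals a level of 95%. A count of 0 was taken to allow 3 reads. Differences between ratios have exact conditional intervals. The genes named were all members, the other lens crystallins, genes of the lists called against both controls or in Saline against Buffer, defining genes of each list, and the 5 nearest genes. A few others were named after their values were seen. A gene of the lens fiber list is not reported here. Promoters came from RefSeq (GRCr8) and were used for sequence only. Alternatives were other pseudocounts, units, thresholds, scalings (edgeR 4.0.16, DESeq2 1.42.0) and member sets. Scripts ran in Python 3.11.15 with scipy 1.17.1 and R 4.3.3, and were tested on simulated data.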

Additional observations from a re-analysis of the deposited data

How the results depend on the processing

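No paired analysis was possible because each group has 1 library, and for the same reason no replicate could be left out. The number of members called higher stayed within 1.5 times its value under every alternative run, and no direction reversed. The largest drop was for Saline against Buffer, from 8 members to 6 with thresholds of 2 and 0.5. The summed ratio of STZ to Buffer was 14.7 with all 16 lens crystallin genes. That of STZ to Saline was 6.62 without Cryaa, 6.62 without Cryab, 5.25 without Cryba1, 6.49 from FPKM and 5.01 over the 7 members with whole counts. That of Saline to Buffer was 2.52 with all 16 genes. By FPKM the α share was 22.4%, 33.8% and 17.1% in the order Buffer, Saline, STZ, the β share in STZ was 37.4%, and the γ share was 42.5%, 33.8% and 45.5%. For STZ against Buffer, the lens fiber list had 0 genes higher among the 6 with a mean of at least 50 reads, where 2.06% of all genes were. With a pseudocount of 0.1 it had 7 of 16, and the share of all genes was not computed at that setting. That pseudocount also gave 1 lens epithelium gene, 1 lens regulator, 2 small heat shock genes and 1 heat shock response gene, where the pseudocount of 1 gave 0. Crybb2 was called with a pseudocount of 0.1 (folds of 5.8 for STZ against Buffer, 1.57 for STZ against Saline and 3.7 for Saline against Buffer) and in TPM for STZ against Buffer (1.93). Against the mean of both controls the fold of STZ was 6.2 for Cryaa, 13.7 for Cryba1, 6.14 for Crybb3, 10.4 for Crygf and 1.3 for Cryab, of which only Cryab lost its call. Crybb2 and Crygs, with at most 6 reads, are limited by depth.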
